A study of Homo sapiens with 6 samples.

Results

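AP-1 is a family of transcription factors that bind DNA as pairs of leucine zipper proteins. The members described here are the FOS-family genes FOS, FOSB, FOSL1 and FOSL2, the JUN-family genes JUN, JUNB and JUND, and the related zipper genes ATF3, BATF3 and MAFF. They were chosen by gene symbol and make up 10 of the 61806 genes in the deposited table. All 10 were among the 16110 genes with enough reads to be tested.

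MDA-MB-231 is a cell line from a triple-negative breast cancer, a tumor type without estrogen receptor, progesterone receptor or HER2 amplification. RNA was sequenced from 3 lines of it, with 2 libraries each: shNC with a control vector, and shHMGA2-1 and shHMGA2-2, which each carry a different short hairpin RNA (shRNA) against HMGA2 in a TRC2-pLKO lentiviral vector. HMGA2 is an architectural protein of chromatin that binds AT-rich DNA, and the study asked which genes depend on it. Per the methods, cells were infected under puromycin and each stable knockdown line was expanded from 1 clone. The controls are marked as wild type in their library names, and each condition is a single line, so the effect of an shRNA and other differences between lines cannot be told apart. Nothing in the labels says whether the 2 libraries of a line came from separate cultures, and the p-values then measure only the spread between these samples, which may be technical.

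FOS proteins cannot pair with each other and bind DNA only together with a JUN protein, whereas JUN proteins also pair among themselves. The pairs recognize TGAGTCA or TGACTCA, the TPA response element, and with ATF partners TGACGTCA, the cyclic AMP response element (CRE). The pattern TGANTCA searched below is broader, as it also admits A or T as its middle letter. MAP kinases switch FOS and JUN genes on within minutes of a stimulus, which makes them immediate early genes. In breast cancer cells AP-1 is known for driving proteases and cytokines used in invasion, and FOSL1, also called FRA-1, is the FOS protein best known for high levels in triple-negative lines.

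RefSeq start sites (GRCh38.p14) were found for 8 of the 10 members, and none is given here for FOSL1 and BATF3. The 100 bases before the start are shown for FOS, FOSB and JUNB, which stood highest in shHMGA2-2, and for JUND, which stood lowest there. FOSL2 and MAFF also stood highest in shHMGA2-2 and are not shown. Capitals mark the short CRE form TGACGT or its reverse complement ACGTCA, the TATA box TATAAA and the CAAT box CCAAT.
FOS: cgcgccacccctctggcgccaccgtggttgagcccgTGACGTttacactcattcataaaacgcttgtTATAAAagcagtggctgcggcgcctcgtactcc
FOSB: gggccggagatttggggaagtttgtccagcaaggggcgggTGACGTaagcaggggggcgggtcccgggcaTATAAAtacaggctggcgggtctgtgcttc
JUNB: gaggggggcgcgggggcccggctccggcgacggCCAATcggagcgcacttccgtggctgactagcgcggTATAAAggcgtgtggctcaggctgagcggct
JUND: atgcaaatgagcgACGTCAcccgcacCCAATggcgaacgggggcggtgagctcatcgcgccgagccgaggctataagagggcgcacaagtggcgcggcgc

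These are chr14:75278728-75278827 (plus strand), chr19:45467896-45467995 (plus strand), chr19:12791386-12791485 (plus strand) and chr19:18281623-18281722 (minus strand). In 250 bases before the start, searched on both strands, TATAAA began 33 bases before the FOS start, 30 before that of FOSB and 31 before that of JUNB. None of the 3 other JUN or FOS genes with a start site, JUN, JUND and FOSL2, held TATAAA in the window, and neither did MAFF. Only exact strings were searched, so near matches, such as tataag in the JUND sequence above, were not counted. TGACGT began 64, 60 and 66 bases before the starts of FOS, FOSB and FOSL2. Its reverse complement ACGTCA lay 87 to 82 bases before the JUND start. The complete TGACGTCA was found at 54 to 47 bases before the MAFF start and at 200 to 193 before the JUND start, and it contains the short form. Of 35116 RefSeq windows of this length, 10.7% held TATAAA, 7.10% TGACGT, 1.65% TGACGTCA and 32.0% CCAAT. No member window held TGANTCA, found in 6.57% of all windows, or the CArG box bound by serum response factor, found in 1.16%. Sequence farther than 250 bases before the start was not searched, so sites there would be missed. The windows of the members were less AT-rich than the median of 42.0% for JUN (38.0%), FOS (35.2%), FOSB (34.4%), FOSL2 (30.4%), JUNB (29.2%) and JUND (25.2%), while the first ATF3 start had 50.8%. These matches describe letters and are not measured binding sites.

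**Figure D1:**
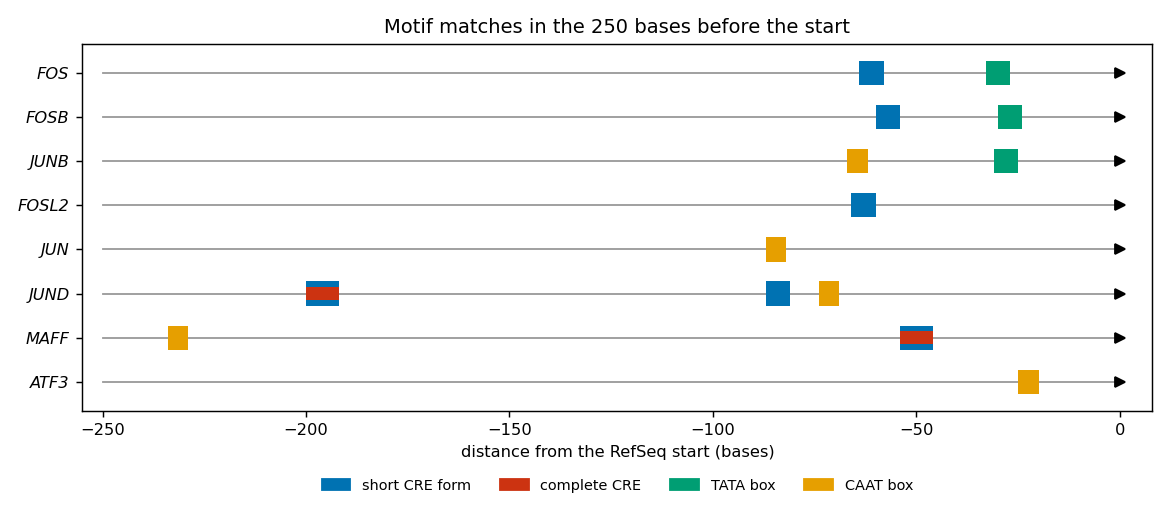
Motif matches before the RefSeq start of 8 AP-1 members. The x axis is the distance from the start in bases, arrowheads mark the start, and colors mark the short CRE form, the complete CRE, the TATA box and the CAAT box. TATA boxes lie 25 to 33 bases before the starts of FOS, FOSB and JUNB, and short CRE forms 55 to 66 bases before those of FOS, FOSB and FOSL2. A further short form lies 82 to 87 bases before the start of JUND.

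The libraries held 16461178 to 17167293 counts, and a member had 109 to 6004 counts per library. Levels are given as FPKM, fragments scaled to exon length and library total. HMGA2 had 8.31 and 8.44 FPKM under shNC, 3.32 and 3.83 under shHMGA2-1 and 1.75 and 1.93 under shHMGA2-2. VIM, a mesenchymal marker of this line, had 411 to 432 FPKM in all libraries, KRT18 28.3 to 37.4 and KRT8 10.7 to 29.9. SPARC, also listed as a marker, was near 0 (0 to 0.08 FPKM). ESR1, PGR and CDH1 did not pass 0.05 FPKM, and EPCAM had 3.08 to 7.26. The leukocyte markers PTPRC, CD3E and CD14 and the endothelial markers PECAM1 and CDH5 did not pass 0.3 FPKM.

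The 2 shHMGA2-1 libraries differed more than those of the other lines, with a chi-square of 6.49 per degree of freedom over genes, against 2.03 for shNC and 3.02 for shHMGA2-2. All 10 AP-1 members had a lower FPKM in replicate 2 of shHMGA2-1 than in replicate 1, with a median ratio of 0.855. All 10 were higher in replicate 2 of shHMGA2-2 than in replicate 1, with a median ratio of 1.09. In shNC, 6 were higher and 4 lower in replicate 2. After TMM scaling, which sets library sizes by the bulk of genes, the members lower in replicate 2 of shHMGA2-1 numbered 9 and those higher in replicate 2 of shHMGA2-2 numbered 8. The same counts were not made over all tested genes, so whether these directions are particular to the members was not tested. The part of this spread in the results below was not tested beyond leaving out each library.

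FOSL1 had the highest FPKM of the members in every library and fell in both knockdown lines. FOSL1 (ENSG00000175592, GRCh38 chromosome 11, 65892049 to 65900573, minus strand) had 172 and 187 FPKM under shNC, 144 and 115 under shHMGA2-1 and 95.8 and 97.5 under shHMGA2-2. The 3 lines did not overlap, and shHMGA2-2 stood lowest. Against shNC its log2 fold change was -0.54 (standard error, SE, 0.08, adjusted p = 5.14e-06, edgeR) in shHMGA2-1 and -1.02 (SE 0.08, adjusted p = 4.8e-11, edgeR) in shHMGA2-2. The latter lies next to the 2-fold limit. In bulk RNA, fewer cells of a state and less RNA per cell cannot be told apart, here and for every gene below.

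The other 3 FOS-family genes were higher in shHMGA2-2. FOS (chromosome 14, 75278826 to 75282230, plus strand), the founding immediate early member, had 33.9 and 31.2 FPKM under shNC, 35.5 and 26.1 under shHMGA2-1 and 76.9 and 86.4 under shHMGA2-2. Both shHMGA2-2 libraries stood above the other 4, while shHMGA2-1 and shNC overlapped. FOS rose by 1.21 on the log2 scale in shHMGA2-2 (SE 0.09, adjusted p = 6.27e-11, edgeR), and its difference of -0.15 in shHMGA2-1 did not pass (SE 0.10, adjusted p = 0.262, edgeR). Without replicate 1 of shHMGA2-1, that difference was -0.37 (adjusted p = 0.000279, edgeR), and without replicate 2 it was 0.05 (adjusted p = 0.667, edgeR).

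FOSB (chromosome 19, 45467995 to 45475179, plus strand), a close relative of FOS with the same rapid induction, had 9.81 and 9.14 FPKM under shNC, 13.5 and 10.6 under shHMGA2-1 and 19.1 and 23.5 under shHMGA2-2. Its libraries were ordered by line with no overlap. FOSB rose by 1.05 (SE 0.10, adjusted p = 2.58e-09, edgeR) in shHMGA2-2 and by 0.28 (SE 0.10, adjusted p = 0.0349, edgeR) in shHMGA2-1. The smaller rise was lost with DESeq2 (adjusted p = 0.0815), with limma on FPKM (0.137 with a pseudocount of 1), and on leaving out either shNC library (0.104 and 0.271), replicate 1 of shHMGA2-1 (0.390) or either shHMGA2-2 library (0.0550 and 0.0598).

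FOSL2 (chromosome 2, 28392448 to 28417317, plus strand), which like FOSL1 lacks the strong activation domain of FOS, moved in opposite directions in the 2 knockdown lines. It had 15.03 and 16.99 FPKM under shNC, 13.6 and 12.7 under shHMGA2-1 and 36.0 and 36.2 under shHMGA2-2. Its shHMGA2-1 libraries lay below both shNC libraries and its shHMGA2-2 libraries far above them. The log2 fold changes were -0.35 (SE 0.07, adjusted p = 0.000774, edgeR) in shHMGA2-1 and 1.05 (SE 0.07, adjusted p = 7.17e-12, edgeR) in shHMGA2-2. Without replicate 2 of shNC the fall in shHMGA2-1 was 0.26 in size and did not pass (adjusted p = 0.0787, edgeR).

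Among the JUN genes, JUNB had the largest change of any member. JUNB (chromosome 19, 12791486 to 12793315, plus strand), a weaker activator than JUN that can oppose it, had 10.04 and 11.1 FPKM under shNC, 11.2 and 10.5 under shHMGA2-1 and 38.2 and 39.2 under shHMGA2-2. The shNC and shHMGA2-1 libraries overlapped, and both shHMGA2-2 libraries stood far above them. JUNB rose by 1.75 on the log2 scale, or 3.37-fold, in shHMGA2-2 (SE 0.10, adjusted p = 1.4e-13, edgeR). In shHMGA2-1 its difference was -0.03 (SE 0.11, adjusted p = 0.883, edgeR). JUNB shares 259 exonic bases with HOOK2 on the opposite strand, and HOOK2 had 126 to 206 counts per library. The strand setting of the counting is not given in the sources used here.

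JUN (chromosome 1, 58776845 to 58784048, minus strand), the main partner of FOS proteins, fell slightly in both knockdown lines. It had 54.8 and 56.2 FPKM under shNC, 48.7 and 43.5 under shHMGA2-1 and 50.4 and 52.3 under shHMGA2-2. All 4 knockdown libraries lay below both shNC libraries. Its log2 fold change was -0.33 (SE 0.07, adjusted p = 0.000502, edgeR) in shHMGA2-1 and -0.23 (SE 0.07, adjusted p = 0.00526, edgeR) in shHMGA2-2. Upper quartile scaling, which moved the median of all genes in shHMGA2-2 against shNC from 0.03 to 0.14, gave JUN -0.12 there (adjusted p = 0.141, edgeR). The call in shHMGA2-2 was also lost with limma (adjusted p = 0.174 with a pseudocount of 1), without replicate 2 of shNC (0.0804, edgeR) and without replicate 1 of shHMGA2-2 (0.0528, edgeR).

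JUND (chromosome 19, 18279694 to 18281622, minus strand), the JUN gene known for steady rather than induced expression, had 26.4 and 25.1 FPKM under shNC, 23.6 and 19.8 under shHMGA2-1 and 14.2 and 15.8 under shHMGA2-2. Its order across lines was the reverse of that of FOSB, again without overlap. JUND fell by 0.90 (SE 0.10, adjusted p = 3.71e-08, edgeR) in shHMGA2-2 and by 0.31 (SE 0.10, adjusted p = 0.0153, edgeR) in shHMGA2-1. The fall in shHMGA2-1 did not pass with upper quartile scaling (adjusted p = 0.0544, edgeR), with limma (0.107 with a pseudocount of 1), or without replicate 1 or 2 of shNC (0.147 and 0.0728) or replicate 2 of shHMGA2-1 (0.0912).

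The partners outside the FOS and JUN families had the lowest levels. ATF3 (chromosome 1, 212565334 to 212620777, plus strand), a stress-induced factor that often represses, had 5.79 and 6.81 FPKM under shNC, 8.87 and 8.70 under shHMGA2-1 and 5.94 and 6.48 under shHMGA2-2. The shHMGA2-1 libraries stood above the rest, and the other 2 lines overlapped. ATF3 rose by 0.42 in shHMGA2-1 (SE 0.11, adjusted p = 0.00338, edgeR) and differed by -0.14 in shHMGA2-2 (SE 0.11, adjusted p = 0.278, edgeR). Without replicate 1 of shNC the value in shHMGA2-1 was 0.30 (adjusted p = 0.131, edgeR).

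BATF3 (chromosome 1, 212686417 to 212699840, minus strand), which lies next to ATF3 and pairs with JUN proteins, had 3.23 and 2.98 FPKM under shNC, 5.76 and 3.55 under shHMGA2-1 and 2.58 and 2.79 under shHMGA2-2. A single library, replicate 1 of shHMGA2-1, stood apart. BATF3 rose by 0.52 in shHMGA2-1 (SE 0.18, adjusted p = 0.0306, edgeR), and without that library the value was 0.14 (adjusted p = 0.633, edgeR). The call was also lost with DESeq2 (adjusted p = 0.120), with limma (0.128 with a pseudocount of 1), and on leaving out either shNC library (0.0941 and 0.186) or either shHMGA2-2 library (0.0620 and 0.0638). In shHMGA2-2 it differed by -0.33 (SE 0.20, adjusted p = 0.152, edgeR).

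MAFF (chromosome 22, 38200767 to 38216507, plus strand), a small MAF protein without an activation domain, had 5.77 and 6.16 FPKM under shNC, 7.81 and 6.79 under shHMGA2-1 and 8.85 and 10.1 under shHMGA2-2. The lines did not overlap. MAFF rose by 0.54 in shHMGA2-2 (SE 0.10, adjusted p = 4.06e-05, edgeR), and its value of 0.23 in shHMGA2-1 did not pass (SE 0.10, adjusted p = 0.0857, edgeR). That value passed with upper quartile scaling (0.29, adjusted p = 0.0270, edgeR) and without replicate 2 of shHMGA2-1 (0.31, adjusted p = 0.0139, edgeR).

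**Figure D2:**
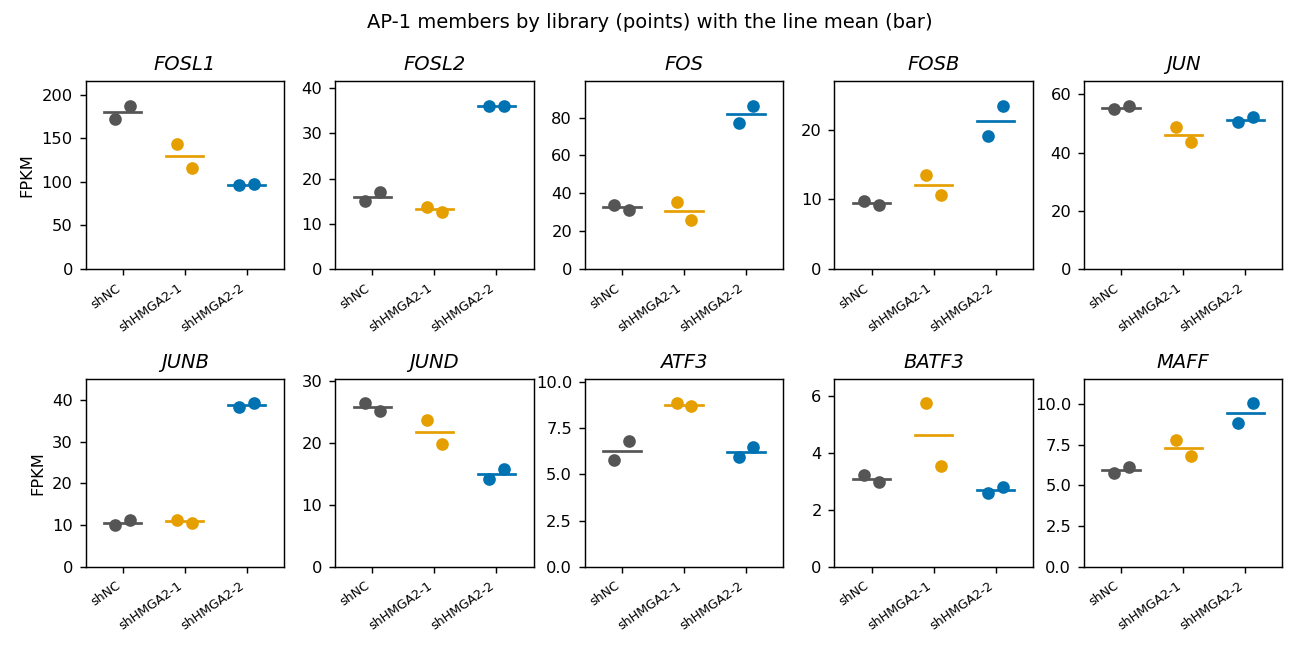
FPKM of the 10 AP-1 members in each library. Points are libraries, bars are means of the 2 libraries of a line, and each y axis starts at 0 with its own range. FOS, FOSB, FOSL2 and JUNB stand highest in shHMGA2-2, FOSL1 and JUND stand lowest there, and JUN stays between 43.5 and 56.2.

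In FPKM the FOS-family genes summed to similar levels in shNC and shHMGA2-2, with a different makeup. The 4 genes summed to 237.9 ± 9.64 FPKM (SD, n = 2) in shNC, 185 ± 29.2 in shHMGA2-1 and 235.7 ± 11.1 in shHMGA2-2. FOSL1 made up 75.6% ± 1.40 (SD, n = 2) of it in shNC, 69.8% ± 0.263 in shHMGA2-1 and 41.0% ± 1.43 in shHMGA2-2. FOS made up 13.7%, 16.52% and 34.6%, FOSL2 6.72%, 7.16% and 15.3%, and FOSB 3.99%, 6.50% and 9.02% in the same order of lines. These shares describe levels per exon length, and no test was run on them. TMM-scaled CPM are counts set to a library size adjusted by TMM, which FPKM does not use, and not divided by exon length. This scale was added for these sums after the data were seen. On it the 4 genes summed to 622 and 654 under shNC, 551 and 455 under shHMGA2-1 and 769 and 808 under shHMGA2-2. By these sums shHMGA2-2 stood above shNC without overlap.

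Within the JUN family JUNB took a larger share in shHMGA2-2 than in shNC, and JUND and JUN smaller ones. The 3 genes summed to 91.8 ± 0.841 FPKM (SD, n = 2) in shNC, 78.7 ± 6.80 in shHMGA2-1 and 105.0 ± 3.21 in shHMGA2-2. JUNB made up 11.5%, 13.8% and 36.9% of the sum in shNC, shHMGA2-1 and shHMGA2-2, JUND 28.04%, 27.5% and 14.3%, and JUN 60.4%, 58.6% and 48.9%. In TMM-scaled CPM the 3 genes summed to 279.7 and 285 under shNC and 272 and 277 under shHMGA2-2. Thus shHMGA2-2 lay above shNC in FPKM and below it in TMM-scaled CPM. These scales differ in exon length and also in the TMM factors, 0.959 and 0.958 in shNC and 1.03 and 1.05 in shHMGA2-2. The part of each in the reversal was not tested. Of all 10 members together, FOSL1 took 52.1% ± 1.37 in shNC, 45.4% ± 0.871 in shHMGA2-1 and 26.9% ± 0.850 in shHMGA2-2.

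**Figure D3:**
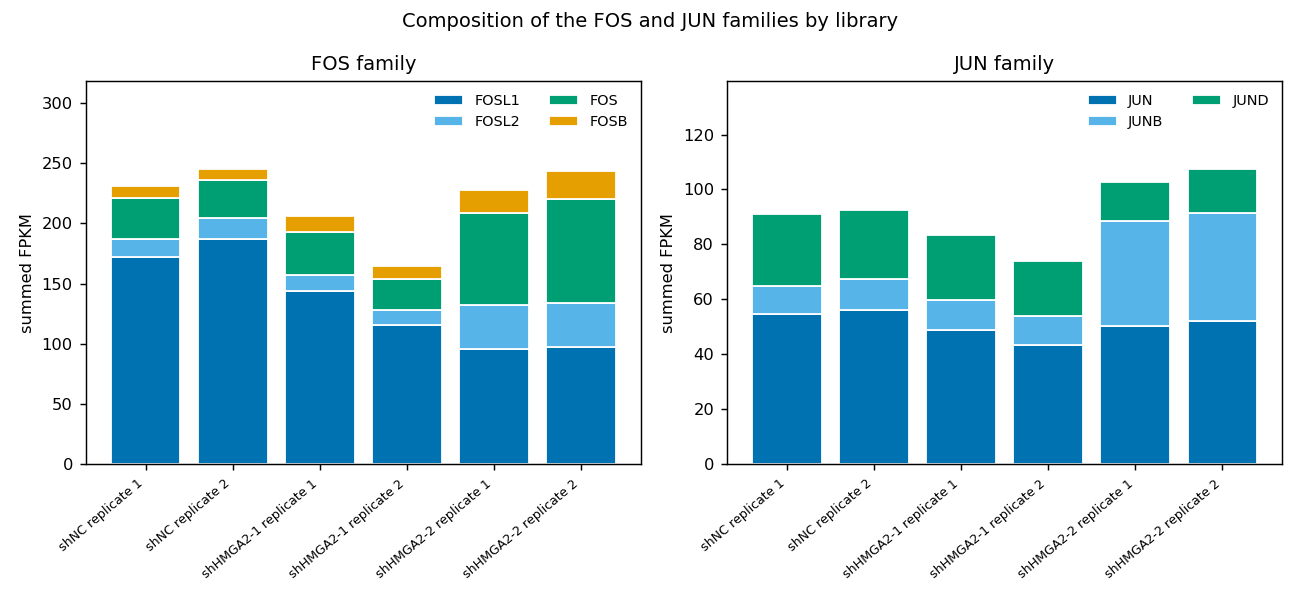
Summed FPKM of the FOS family (left) and the JUN family (right) in each of the 6 libraries, stacked by gene. The FOSL1 segment takes 41.0% of the FOS column in shHMGA2-2 against 75.6% in shNC, and the JUNB segment 36.9% of the JUN column against 11.5%.

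The order of the members by mean FPKM was close in shNC and shHMGA2-1. In shNC it ran FOSL1, JUN, FOS, JUND, FOSL2, JUNB, FOSB, ATF3, MAFF and BATF3, and only the neighbors ATF3 and MAFF overlapped between libraries. In shHMGA2-1 the first 5 were the same genes, followed by FOSB, JUNB, ATF3, MAFF and BATF3, with overlap between FOSL2 and FOSB and between FOSB and JUNB. In shHMGA2-2 the order was FOSL1, FOS, JUN, JUNB, FOSL2, FOSB, JUND, MAFF, ATF3 and BATF3, and no neighbors overlapped. JUND thus ranked 4 in shNC and 7 in shHMGA2-2, while JUNB ranked 6 and 4.

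In shHMGA2-1 against shNC, 7 of the 10 members passed an adjusted p of 0.05, where 33.4% of all tested genes did. ATF3, BATF3 and FOSB rose (15.8% of all tested genes rose), and FOSL1, FOSL2, JUN and JUND fell (17.6% fell). None changed 2-fold, which with the adjusted p defines a differentially expressed gene (DEG), and 8.49% of all tested genes were DEGs. The median log2 fold change was -0.09 over the members and 0.01 over all tested genes. FOSL1 and JUN were the members called under each alternative tool, scaling and filter and without any single library. The count fell to 4 with limma, where 4165 and 4210 of all tested genes passed at pseudocounts of 1 and 0.1, against 5388. The count was also lower without either shNC library.

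In shHMGA2-2 against the same shNC libraries, 8 members passed, where 58.7% of all tested genes did. FOS, FOSB, FOSL2, JUNB and MAFF rose (29.5% of all tested genes rose), and FOSL1, JUN and JUND fell (29.2% fell). FOS, FOSB, FOSL2, JUNB and FOSL1 were DEGs, 5 of 10, where 21.3% of all tested genes were. The median log2 fold change was 0.20 over the members and 0.03 over all tested genes, and the median size of change without regard to sign was 0.96 against 0.47. FOSL1, FOSB and FOSL2 lay close to the 2-fold limit, and without replicate 2 of shNC the DEGs numbered 3.

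**Figure D4:**
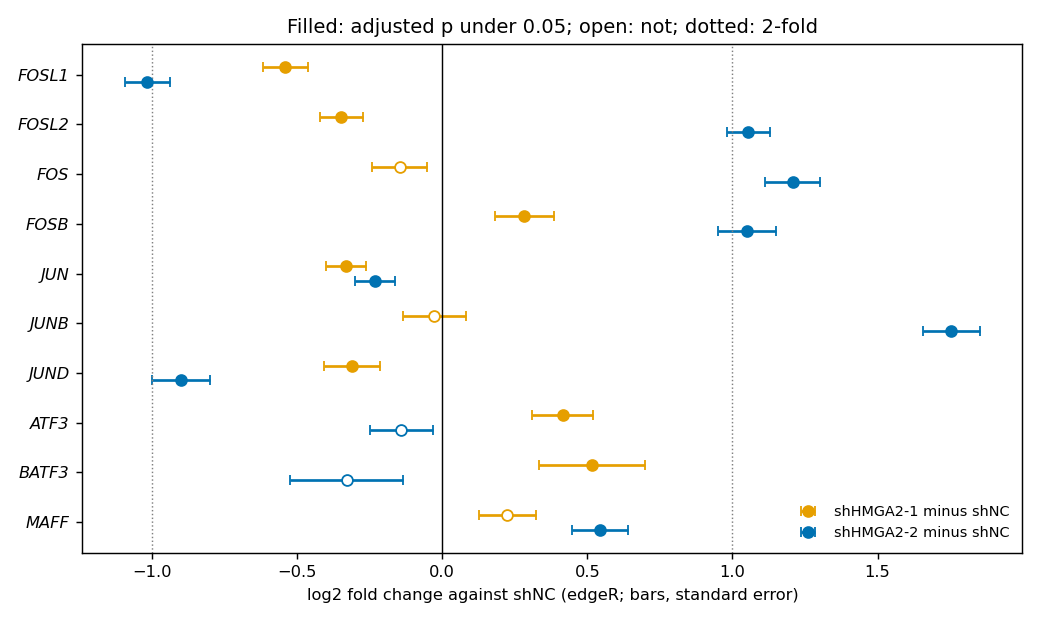
Log2 fold change of each AP-1 member against shNC, with its standard error, in shHMGA2-1 (orange) and shHMGA2-2 (blue). Filled points passed an adjusted p of 0.05 (edgeR) and dotted lines mark a 2-fold change. FOS and JUNB differ from shNC in shHMGA2-2, by 1.21 and 1.75, and did not pass in shHMGA2-1.

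A direct test between the knockdown lines asked which members differed between the shRNAs. Of the 10 members 9 differed, where 50.2% of all tested genes did, and JUN was the exception with a difference of 0.10 (SE 0.07, adjusted p = 0.240, edgeR). JUNB was higher in shHMGA2-2 than in shHMGA2-1 by 1.78 (SE 0.10, adjusted p = 1.51e-13, edgeR), FOSL2 by 1.40 (SE 0.07, adjusted p = 6.43e-14, edgeR) and FOS by 1.35 (SE 0.09, adjusted p = 1.35e-11, edgeR). These 3 were the DEGs of the comparison, in which 15.1% of all tested genes were DEGs. FOSB and MAFF were also higher in shHMGA2-2, as 24.5% of all tested genes were, and FOSL1, JUND, ATF3 and BATF3 were lower, as 25.7% were. The median over the members was 0.21, against -0.00 over all tested genes.

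With the 4 shHMGA2 libraries taken as a single group against shNC, as the series describes them, no member passed in edgeR, where 5.26% of all tested genes did. Of all tested genes 2.34% rose, 2.92% fell and 3.09% were DEGs in this grouping, and no member was among them. FOSL1 was lowest in adjusted p, with a log2 fold change of -0.76 (SE 0.19, adjusted p = 0.0715, edgeR). FOSL1, JUN, JUND and MAFF, 4 members, had an unadjusted p under 0.05, as did 4106 of the 16110 tested genes. DESeq2 called FOSL1 (-0.77, adjusted p = 0.00476) and JUN (-0.29, adjusted p = 0.0326), among 2268 genes in all against 848 with edgeR. Without replicate 1 of shHMGA2-1 edgeR called FOSL1 (-0.90, adjusted p = 0.0390). The biological coefficient of variation was 0.291 in this grouping and 0.0583 with 3 lines, and JUNB, for example, was given a standard error of 0.63 and an adjusted p of 0.299 (edgeR).

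Of 11 other bZIP genes that can pair with AP-1 proteins, 7 had enough reads to be tested. In shHMGA2-1, 1 rose and 2 fell, where 15.8% of all tested genes rose and 17.6% fell. In shHMGA2-2, 1 rose and 6 fell, where 29.5% of all tested genes rose and 29.2% fell. CREB5, a CRE-binding partner of JUN, had 2.05 and 2.2 FPKM under shNC, 0.93 and 0.96 under shHMGA2-1 and 0.71 and 0.54 under shHMGA2-2. It fell by 1.24 in shHMGA2-1 (adjusted p = 8.58e-08, edgeR) and by 1.88 in shHMGA2-2 (adjusted p = 4.22e-11, edgeR). MAFG, a small MAF protein like MAFF, fell by 0.45 and 0.47 (adjusted p = 0.000203 and 5.06e-05, edgeR), where MAFF did not fall in either line. JDP2, a repressor that pairs with JUN, had 1.81 and 2.00 FPKM under shNC, 3.23 and 3.05 under shHMGA2-1 and 0.80 and 0.76 under shHMGA2-2, so that it rose in the former line and fell in the latter. Over genes whose FPKM averaged 1 or more, the number that rose in shHMGA2-2 was 0, and with limma 1 gene of this list rose there and 3 fell.

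Of the MAP kinase genes that feed AP-1, none was a DEG in shHMGA2-1 and 1, RPS6KA1, was in shHMGA2-2. DEGs made up 8.49% and 21.3% of all tested genes in these comparisons. Of 16 genes, all tested, 0 rose and 6 fell in shHMGA2-1, and 4 rose and 7 fell in shHMGA2-2, beside 15.8% and 17.6%, and 29.5% and 29.2%, of all tested genes. The medians were -0.12 and -0.15, against 0.01 and 0.03 over all tested genes. SRF, the serum response factor that drives FOS with ELK proteins, had 21.1 and 21.6 FPKM under shNC, 14.9 and 13.7 under shHMGA2-1 and 15.8 and 13.7 under shHMGA2-2. It fell by 0.64 and 0.65 (adjusted p = 2.64e-06 and 5.79e-07, edgeR). The count of falls in shHMGA2-1 was 2 with upper quartile scaling, with limma and without either shNC library. RPS6KA1, an ERK-activated kinase named after its values were seen, rose by 1.89 in shHMGA2-2 (adjusted p = 2.62e-13, edgeR).

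Other immediate early genes moved in both directions in each knockdown line. Of 19 genes 17 were tested, of which 8 rose and 5 fell in shHMGA2-1 and 6 rose and 7 fell in shHMGA2-2 (without replicate 2 of shNC, 3 fell in shHMGA2-1). Over all tested genes 15.8% rose and 17.6% fell in the former and 29.5% and 29.2% in the latter. EGR1, a zinc finger factor induced by the same signals as FOS, had 6.07 and 5.54 FPKM under shNC, 31.5 and 31.1 under shHMGA2-1 and 53.7 and 63.4 under shHMGA2-2. It rose by 2.37 and 3.21 (adjusted p = 2.23e-15 and 5.63e-19, edgeR), whereas FOS passed in shHMGA2-2 alone. BTG2, an antiproliferative gene, had 1 count in each shNC library, and its ratio to shNC was 60.9 (95% exact counting interval 16.504 to 508.5) in shHMGA2-1 and 143 (39.3 to 1189) in shHMGA2-2.

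IER3, an inhibitor of cell death, fell by 1.09 and 0.39 (adjusted p = 7.4e-11 and 0.000108, edgeR), and IER5 fell by 0.46 and 1.44 (adjusted p = 9.89e-05 and 5.25e-13, edgeR). DUSP1, a phosphatase that turns MAP kinases off, is named after its values were seen. It had 134 and 128 FPKM under shNC, 148 and 137 under shHMGA2-1 and 60.9 and 65.6 under shHMGA2-2, and fell by 1.17 in shHMGA2-2 (adjusted p = 2.49e-13, edgeR).

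The AP-1 target genes also moved in both directions. Of 21 genes 18 were tested, of which 5 rose and 9 fell in shHMGA2-1 (15.8% and 17.6% of all tested genes) and 8 rose and 6 fell in shHMGA2-2 (29.5% and 29.2%). Without replicate 1 of shNC, 3 rose in shHMGA2-1. MMP1, the interstitial collagenase, had 155 and 165 counts under shNC, 53 and 53 under shHMGA2-1 and 5 and 2 under shHMGA2-2, so that shNC was 3.05 times as high as shHMGA2-1 (95% exact counting interval 2.44 to 3.83) and 44.5 times as high as shHMGA2-2 (21.3 to 112). IL11, a cytokine of the IL-6 family, had 547 and 496 counts under shNC, 86 and 77 under shHMGA2-1 and 0 and 6 under shHMGA2-2, and shNC was 169 times as high as the latter (77.5 to 462). PLAU, the urokinase protease, rose in both lines, with 28.5 and 33.7 FPKM under shNC, 103 and 95.3 under shHMGA2-1 and 116.5 and 122 under shHMGA2-2. TIMP1, an inhibitor of metalloproteinases, rose by 0.33 and 0.90 (adjusted p = 0.0131 and 2.72e-08, edgeR), and the smaller rise was lost without replicate 1 or 2 of shNC (adjusted p = 0.173 and 0.0571) or replicate 1 of shHMGA2-1 (0.144).

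CXCL8, AREG and EREG, a chemokine and 2 ligands of the EGF receptor, fell in shHMGA2-1 and rose in shHMGA2-2, the pattern also seen for FOSL2. CXCL8 had 17.6 and 17.23 FPKM under shNC, 3.78 and 5.44 under shHMGA2-1 and 59.4 and 62.2 under shHMGA2-2. EREG had 0.63 and 0.77 FPKM under shNC, 0.34 and 0.35 under shHMGA2-1 and 3.39 and 3.57 under shHMGA2-2. AREG had 2.15 and 2.76, 0.96 and 0.75, and 3.88 and 4.37 FPKM in the same order, and its rise of 0.63 was lost with DESeq2 (adjusted p = 0.0842), without replicate 1 of shNC (0.157, edgeR) and without replicate 2 of shHMGA2-2 (0.103, edgeR).

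The pattern TGANTCA, which covers the AP-1 element, lay in the 250 bases before the start of 4 of 14 target genes with a RefSeq start. No start is given here for MMP1, so its promoter was not searched. These were CXCL8, IL11, MMP10 and PLAUR, and MMP10 had too few reads to be tested. PLAUR did not pass in shHMGA2-1 (-0.03, adjusted p = 0.805, edgeR). In shHMGA2-2 its difference was -0.23 (adjusted p = 0.0234, edgeR). The elements of the targets with opposite results in shHMGA2-2 are shown with 15 bases on each side, capitals marking the element.
IL11: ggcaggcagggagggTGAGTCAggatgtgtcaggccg
CXCL8: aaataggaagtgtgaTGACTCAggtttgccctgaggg

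The IL11 stretch is chr19:55370538-55370574 (minus strand, element 96 to 90 bases before the start) and that of CXCL8 is chr4:73740417-73740453 (plus strand, 137 to 131 before the start), in GRCh38.p14. In shHMGA2-2 the gene with the IL11 element was nearly silent and CXCL8 stood at its highest level. TGAGTCA and TGACTCA are reverse complements of each other, so both genes hold the same element, read from opposite strands, and what binds there was not measured.

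**Figure D5:**
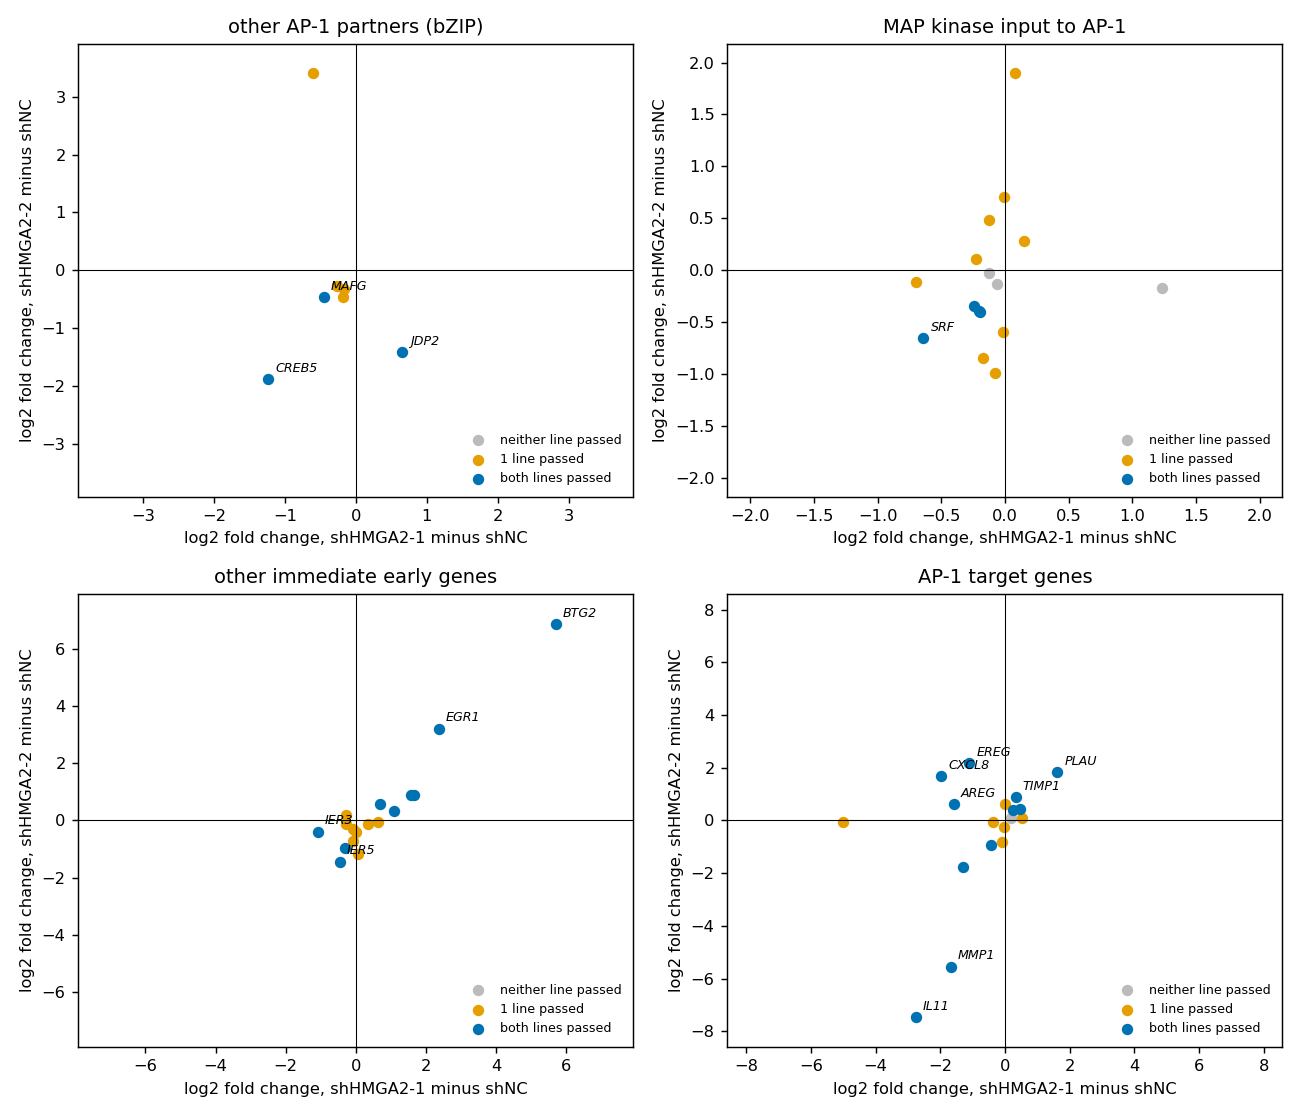
Log2 fold change against shNC in shHMGA2-1 (x axis) and in shHMGA2-2 (y axis) for the tested genes of 4 lists, which share the shNC libraries as control. Each point is a gene, colored by whether it passed an adjusted p of 0.05 in neither, 1 or both lines. CXCL8, AREG and EREG lie at the upper left of the AP-1 target panel, and JDP2 at the lower right of the partner panel.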

How the data were processed

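RNA from MDA-MB-231 lines was sequenced in 6 libraries, grouped by sample title. The authors deposited raw read counts per gene, without normalization, and FPKM made from them by library total and exonic size. Recomputing the FPKM from the counts matched 100% of values to within 0.01 FPKM or 0.5%. The submitters' processing notes name HISAT2 2.2.1, HTSeq 0.6.1 and GRCh38.p13, and a strand setting is not given in the sources used here. Sample titles were followed where library names differed (the controls' names mark wild type, and those of shHMGA2-1 carry SH2).

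Counts of 3 lines were fitted with edgeR 4.0.16 in R 4.3.3 (TMM factors 0.958 to 1.05, filterByExpr, quasi-likelihood test, Benjamini-Hochberg over 16110 genes). The 4 shHMGA2 libraries against shNC were fitted separately. Rose and fell mean an adjusted p under 0.05, and a DEG also changed at least 2-fold. Fold changes are log2. Alternatives were other scalings, DESeq2 1.42.0, other filters (none, or an average FPKM of 1 or more), limma 3.58.1 on log2(FPKM + 1) and log2(FPKM + 0.1), a replicate block and each library left out. The tests were tested on simulated data.

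The members and gene lists were chosen with earlier results of these data known. All members are named, with, per list, up to 2 genes with the largest rise and 2 with the largest fall in both lines, those with opposite calls, MMP1 and HMGA2. Some genes of the marker and pathway lists, although counted, are not reported here by name. Counting intervals are exact, at 95%, and cover only counting error, as no molecular identifiers were used. A floor of 3 counts was 0.175 to 0.182 CPM. Promoter windows were read from RefSeq (GRCh38.p14) with python 3.11.15, and gene positions are those of the deposited table.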

Additional observations from a re-analysis of the deposited data

Results flagged for a closer look

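The effects of the 2 shRNA lines differed for 9 of the 10 AP-1 members by the direct edgeR test between them, with JUN the exception. By the same test 50.2% of all tested genes differed. On the log2 scale, shHMGA2-2 minus shHMGA2-1, the differences were 1.78 for JUNB, 1.40 for FOSL2, 1.35 for FOS, 0.77 for FOSB and 0.32 for MAFF, and -0.47 for FOSL1, -0.59 for JUND, -0.56 for ATF3 and -0.85 for BATF3. HMGA2 was itself lower in shHMGA2-2 than in shHMGA2-1, by 1.01 on the log2 scale, and the part of its level, of the shRNA sequence and of the clone in these differences cannot be told apart with a single line per shRNA. The difference of MAFF did not pass without replicate 2 of shHMGA2-2 (0.24, adjusted p = 0.142, edgeR), and that of JUN did without replicate 1 of shHMGA2-1 (0.17, adjusted p = 0.0264, edgeR).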

How the results depend on the processing

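Of 560 refitted log2 fold changes of members, 516 kept their direction and their side of the threshold, 30 no longer passed, 7 newly passed and 7 changed sign. The members called in shHMGA2-1 numbered 7, and 4 with limma at either pseudocount, and 3 to 7 with a library left out (3 without replicate 1 or 2 of shNC). DEGs among members in shHMGA2-2 numbered 3 to 5 with a library left out. In the single-group comparison 2 members were called with DESeq2, which called 2268 of all tested genes against 848 with edgeR. Without replicate 1 of shHMGA2-1, edgeR called 1 member and 466 of all tested genes there. In shHMGA2-1 the calls over all tested genes were 5388, and 4165 and 4210 with limma at pseudocounts of 1 and 0.1. The cause of these changes was not tested.

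Sign changes concerned log2 differences that had not passed. JUNB in shHMGA2-1 was 0.037 with upper quartile scaling, and 0.035 and 0.038 with limma at pseudocounts of 1 and 0.1, and ranged from -0.10 to 0.048 with a library left out (0.0053 without replicate 2 of shHMGA2-1). FOS there ranged from -0.37 to 0.046, and BATF3 in the single group from -0.16 to 0.29, with a library left out. MAFG between the knockdown lines was 0.034 with upper quartile scaling, 0.0078 over genes whose FPKM averaged 1 or more, and 0.043 and 0.046 with limma, and ranged from -0.15 to 0.14 with a library left out. SRF was 0.036, 0.0094, 0.035 and 0.037 under the same settings and ranged from -0.14 to 0.10. Sums by CPM rather than FPKM, not divided by exonic size, gave FOSL1 35.8%, 29.7% and 15.3% of the AP-1 total in shNC, shHMGA2-1 and shHMGA2-2. By CPM FOSL1 (176 and 175) stood below FOS (238 and 262), FOSL2 (251 and 247) and JUN (178 and 180.2) in both shHMGA2-2 libraries. Within the JUN family, JUN went from 74.4% by CPM in shNC to 65.1% in shHMGA2-2, JUND from 18.4% to 10.1% and JUNB from 7.16% to 24.8%.

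The replicate numbers did not pair the libraries (correlations of deviations -0.10, -0.02 and 0.00). With the replicate number as a block, 7, 8, 9 and 0 members were called in the 4 comparisons, as without it, and 4840, 9065, 7609 and 152 genes in all, against 5388, 9464, 8095 and 848. The single-group comparison fell to 4 genes in all without replicate 1 or 2 of shNC. With 2 libraries a line, changes as small as those of FOS, JUNB and MAFF in shHMGA2-1 could not be separated from the spread.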

Other observations

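Among 11747 other tested genes whose FPKM averaged 1 or more, those whose log2 CPM followed FOSL1 most closely over the 6 libraries were MBOAT7 (Pearson r = 0.999), CHP1 and HK1 (both 0.998). MBOAT7 had 44.5 and 47.1 FPKM under shNC, 37.1 and 30.1 under shHMGA2-1 and 25.5 and 26.8 under shHMGA2-2. An r above 0.9 with FOSL1 was found for 1382 genes, or 11.8%, so such values were common. JUN was followed most closely by NOCT (r = 0.999), LMNA and MYH9 (both 0.994), and 321 genes, or 2.73%, had an r above 0.9 with it. The 6 points fall into 3 lines and share their library scaling, and the values are a description.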
